A study of Mus musculus with 9 samples.

Results

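The mRNA abundance of 10 genes that tie chromosome ends to the nuclear envelope was followed as mouse spermatogonia entered meiosis with and without retinoic acid (RA). The genes were taken from a fixed list, Terb1, Majin, Sun1, Sun2, Terf1, Terf2, Lmna, Lmnb1, Lmnb2 and Pot1a, and all 10 were found by symbol among the 24505 genes of the count table. Libraries were made from intermediate and type B (In/B) spermatogonia at P17, preleptotene (PL) spermatocytes from RA-sufficient testes at P19 and PL spermatocytes from RA-deficient testes at P19, with 3 libraries of each. All mice were Uchl1-eGfp animals of a C57BL/6 line outcrossed to CD-1, in which the Uchl1 promoter drives EGFP, and germ cells were sorted as EGFP-bright (In/B) or EGFP-dim (PL) cells. All had been fed the RA synthesis inhibitor bis-(dichloroacetyl)-diamine from P1, with 100 µg for each g of body weight, and all received 10 µl of RA at 10 µg per µl at P11. The inhibitor was then withdrawn for RA-sufficient mice and continued daily until euthanasia for RA-deficient mice. The regimen of the In/B mice after P11 is not given in the sample records, and the inhibitor had been given until P10 by the published methods or P11 by the records. Testes of at least 5 pups of a litter were pooled for a preparation, and the number of preparations was given only as 2 or 3, so the spread between libraries may be partly technical.

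In meiotic prophase the ends of all chromosomes attach to the inner nuclear membrane, where they are moved along the envelope so that homologous chromosomes can find each other. Shelterin, which coats telomeric repeats through TERF1, TERF2 and POT1 proteins, hands the telomere to a meiosis-specific complex of TERB1, TERB2 and the membrane protein MAJIN. SUN proteins of the inner membrane and KASH proteins of the outer membrane form the LINC complex, which couples the attached ends to dynein on cytoplasmic microtubules, while lamins form the meshwork beneath the membrane that attached telomeres must slide through.

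Total counts ran from 12612959 to 27042274 per library. RA-deficient PL libraries had at least 25048240 counts but the fewest genes with a count, 14769 to 15327. In/B libraries had 16758 to 18002 such genes and RA-sufficient PL libraries 17541 to 18434. TMM factors were 0.913 to 0.933 in RA-deficient PL, 0.991 to 1.06 in In/B and 1.04 to 1.08 in RA-sufficient PL. What part this has in the differences between groups was not tested. Levels are given as CPM, which set the counts of a gene against the scaled total of its library (TMM factors) unless stated, and 3 counts in a library corresponded to between 0.111 and 0.238 CPM before scaling. The 5 germ cell markers summed to 2360 to 2592 CPM in In/B and 2104 to 2331 CPM in RA-sufficient PL libraries. In RA-deficient PL they summed to 3667 to 3919 CPM, and each averaged more than in RA-sufficient PL. Dazl, Mael and Tex14 also averaged more than in In/B, while Ddx4 (493 against 535.5 CPM) and Dnd1 (10.3 against 24.5 CPM) averaged less. The 8 meiotic entry markers summed to 539 to 1053 CPM in In/B and 2496 to 3658 CPM in PL libraries. Not all 8 followed the sum. Rec8 averaged 70.7 CPM in In/B, 35.8 CPM in RA-sufficient PL and 24.9 CPM in RA-deficient PL. Stra8 ranges overlapped between In/B and each PL group. Pachytene and spermatid markers, 9 in all, summed to 34.4 to 84.6 CPM in In/B and 245.7 to 906 CPM in RA-sufficient PL. In RA-deficient PL they summed to 4.76 to 143.2 CPM. Of the markers of other cells, 11 of 11 Sertoli markers were higher in RA-sufficient PL than in either other group without overlap, with summed levels of 71.9 to 380.9 CPM in In/B, 3072 to 4060 CPM in RA-sufficient PL and 309 to 537.5 CPM in RA-deficient PL libraries. RA-deficient PL replicate 3 stood apart from replicates 1 and 2. Its 6 markers of differentiating spermatogonia summed to 329.8 CPM against 1396 and 1367 CPM, where In/B libraries had 1305 to 1693 CPM and RA-sufficient PL libraries 286 to 383 CPM. In/B replicate 1 had the lowest sum of meiotic entry markers, 539 CPM against 985 and 1053 CPM. RA-sufficient PL replicate 1 had the highest sum of pachytene and spermatid markers, 906 CPM against 282 and 245.7 CPM. That library was the lowest of its group for Terb1, Majin, Sun1, Terf1 and Pot1a and the highest for Lmna, Lmnb1 and Lmnb2.

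Most of the 10 genes changed between In/B spermatogonia and PL spermatocytes, and they did not all move the same way. Terb1, Majin, Terf1 and Lmna rose, and Terf2, Pot1a, Lmnb1 and Lmnb2 fell, from In/B to RA-sufficient PL. Calls required a change beyond 1 on the log2 scale in either direction together with a Benjamini-Hochberg adjusted p under 0.05, taken over all genes tested by the quasi-likelihood method of edgeR. These 8 of 10 genes were called, 4 higher and 4 lower, where 45.4% of 15001 genes tested were called. By the adjusted p alone 9 of 10 passed, against 65.0% of all genes tested. From In/B to RA-deficient PL 7 of 10 were called, 4 higher and 3 lower, against 23.2% of 14877 genes, and 9 passed by the adjusted p alone, against 36.7%. Between the PL groups Lmna was called, higher in RA-deficient cells, which makes 1 of 10 against 15.5% of 15352 genes. By the adjusted p alone Lmna and Majin were higher and Sun2 lower, 3 of 10 against 23.6%. The In/B libraries serve in both comparisons with PL cells, so those are not independent of each other. Regardless of sign, the log2 fold changes of the 10 genes had a median of 1.52 from In/B to RA-sufficient PL, beside 0.96 over all genes tested, 1.34 beside 0.73 to RA-deficient PL, and 0.41 beside 0.62 between the PL groups.

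Terb1, which links telomeric TERF1 to the membrane complex, showed the largest rise of the 10 genes in RA-sufficient PL, while in RA-deficient PL its rise and that of Lmna were not separated by their errors. Its gene lies at chr8:106970619-107033810 on the minus strand of mm9, named Ccdc79 in GENCODE M1. Terb1 was at 9.67, 9.98 and 11.6 CPM in In/B replicates 1 to 3, at 146, 201 and 233 CPM in RA-sufficient PL, and at 125, 148 and 220.5 CPM in RA-deficient PL. Every PL library was thus far above every In/B library, and the PL groups overlapped. The log2 fold change against In/B was 4.27 (SE 0.20, adjusted p = 1.03e-05, edgeR) in RA-sufficient PL and 4.15 (SE 0.25, adjusted p = 4.91e-05, edgeR) in RA-deficient PL, which are 19.3-fold and 17.7-fold. Between the PL groups the difference of -0.23 (SE 0.24) did not pass the test (adjusted p = 0.512, edgeR), and it was 0.19 with RA-deficient PL replicate 3 as the only library of its group.

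Majin encodes the transmembrane subunit that carries the complex at the inner nuclear membrane, and its gene lies at chr19:6184388-6224225 on the plus strand, named 1700123I01Rik in GENCODE M1. Its levels were 20.4, 40.6 and 40.5 CPM in In/B, 86.8, 128 and 148 CPM in RA-sufficient PL and 202, 187 and 186 CPM in RA-deficient PL. The 3 groups did not overlap, with RA-deficient PL highest, and the lowest In/B value was that of replicate 1, the library low in meiotic entry markers. Majin rose 3.72-fold in RA-sufficient PL (log2 1.896, SE 0.29, adjusted p = 0.00052, edgeR) and 6.38-fold in RA-deficient PL (log2 2.67, SE 0.26, adjusted p = 0.00023, edgeR). It was 1.59-fold higher in RA-deficient than in RA-sufficient PL cells (log2 0.67, SE 0.18, adjusted p = 0.0326, edgeR). That adjusted p ranged from 0.0324 to 0.116 when a library was left out, and it was 0.104 when counts were scaled by library size only.

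The third subunit, Terb2, moved with Terb1. It stood at 4.25, 10.4 and 8.54 CPM in In/B, at 34.4, 59.3 and 66.0 CPM in RA-sufficient PL and at 47.3, 53.3 and 62.6 CPM in RA-deficient PL. Against In/B it rose by 2.84 (adjusted p = 0.000206, edgeR) and 2.98 (adjusted p = 0.000414, edgeR) on the log2 scale. Of the other regulators on the list, Spdya, the activator of CDK2 at meiotic telomeres, rose 21.4-fold and 15.3-fold (log2 4.42 and 3.93, SE 0.32 and 0.40). Fbxo47, an F-box protein needed in meiotic prophase, rose 48.4-fold and 42.0-fold from a mean of 2.94 CPM. Cdk2 itself was at 198.8, 203.7 and 197.7 CPM in In/B, at 233.7, 323.6 and 336.3 CPM in RA-sufficient PL and at 167.7, 163.4 and 229.7 CPM in RA-deficient PL. It was highest in RA-sufficient PL, 1.55-fold above In/B (adjusted p = 0.00471, edgeR), and RA-deficient PL had 0.63 times that level (adjusted p = 0.0329, edgeR), both under the fold threshold. In all, 5 of the 6 genes of the attachment complex and its regulators were called higher in each comparison with In/B, where 45.4% and 23.2% of all genes tested were called in either direction. The list median was 3.55 on the log2 scale in RA-sufficient PL, beside 0.04 for all genes, and 3.46 in RA-deficient PL, beside 0.00.

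**Figure D1:**
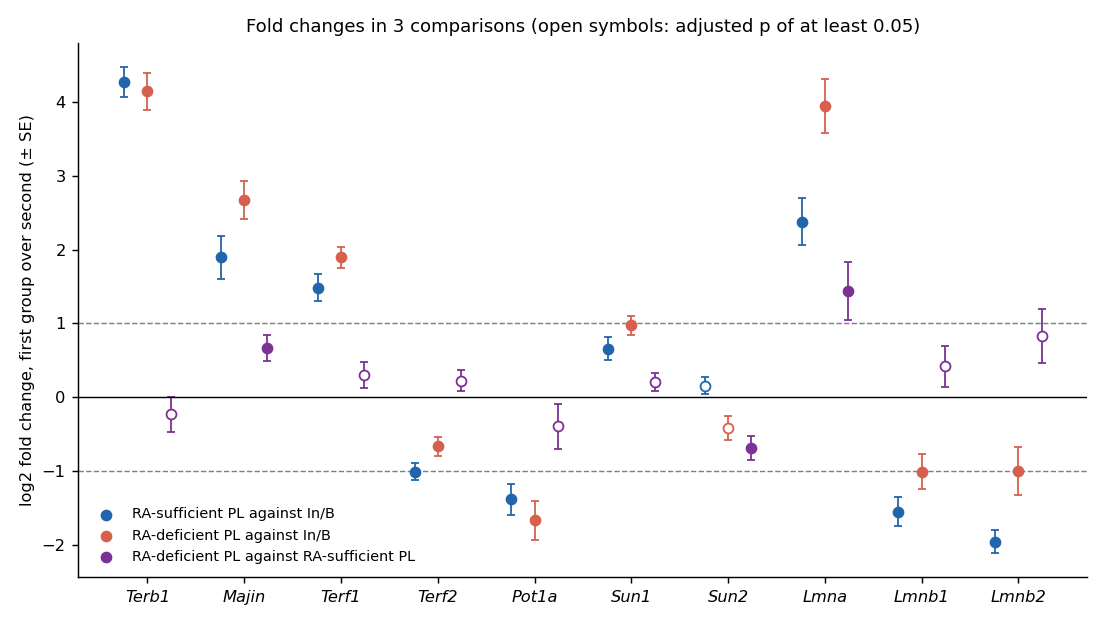
log2 fold change of each of the 10 genes in 3 comparisons, first group over second, with SE as error bars and dashed lines at 1 and -1. Filled symbols passed an adjusted p below 0.05 in edgeR's quasi-likelihood test, and in the comparison between the PL groups these were Majin, Sun2 and Lmna.

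Sun1 and Sun2 encode the SUN proteins of the inner membrane that bind the attached telomere, and Sun1 was the more abundant per length in every library. Sun1 (chr5:139676591-139725794, plus strand) stood at 234, 312 and 311 CPM in In/B, at 352, 460.5 and 486 CPM in RA-sufficient PL and at 477.5, 516 and 507 CPM in RA-deficient PL. No PL library fell into the In/B range, but the changes were small. Sun1 was 1.58-fold higher in RA-sufficient PL (log2 0.66, SE 0.16, adjusted p = 0.00586, edgeR) and 1.97-fold higher in RA-deficient PL (log2 0.98, SE 0.13, adjusted p = 0.000912, edgeR), both under the fold threshold. Without In/B replicate 2 or replicate 3 the second log2 value was 1.01 or 1.05 and was called.

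Sun2 (chr15:79554500-79572966, minus strand) shares 147 exonic bases with a non-coding gene on the opposite strand, Gm16575, and whether strand was used in counting is not given in the sources used here. It held at 67.4, 70.2 and 66.3 CPM in In/B and 71.4, 71.4 and 76.3 CPM in RA-sufficient PL, with 53.2, 40.9 and 42.0 CPM in RA-deficient PL. The RA-deficient libraries were thus the lowest, by a margin that passed the test against RA-sufficient PL (0.62-fold, log2 -0.69, SE 0.16, adjusted p = 0.0228, edgeR) but not against In/B (log2 -0.42, SE 0.16, adjusted p = 0.0799, edgeR). Leaving out single libraries gave adjusted p of 0.0196 to 0.0829 between the PL groups. Sun1 made up 69.5, 74.4 and 75.4% of the length-scaled sum of both genes in In/B, 76.4, 80.8 and 80.7% in RA-sufficient PL and 85.4, 89.2 and 88.8% in RA-deficient PL. The 3 ranges did not overlap, and the exact two-sided permutation p was 0.1 for each pair of groups, the smallest that 3 against 3 libraries can give.

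The KASH partners did not move together. Kash5, the meiotic KASH protein that recruits dynein to attached telomeres (Ccdc155 in the count table), was at 24.2, 37.5 and 39.3 CPM in In/B, at 187.5, 341.5 and 356.5 CPM in RA-sufficient PL and at 293, 367 and 603.5 CPM in RA-deficient PL. It rose 9.12-fold and 14.1-fold against In/B, with adjusted p of 3.56e-05 and 0.000127 (edgeR), and the PL groups did not pass the test (adjusted p = 0.266, edgeR). Syne1 and Syne2, the large nesprins that tie nuclei to actin in many somatic cells, were high in RA-sufficient PL only. Syne2 was at 90.2, 89.3 and 75.5 CPM in In/B, at 411.5, 403.5 and 315 CPM in RA-sufficient PL and at 98.0, 82.9 and 101.1 CPM in RA-deficient PL. Syne1 was at 8.14 to 16.8 CPM, 42.6 to 72.8 CPM and 6.54 to 11.1 CPM. Against RA-sufficient PL, RA-deficient PL cells had 0.25 times the Syne2 (log2 -2.01, SE 0.16, adjusted p = 0.000814, edgeR) and 0.15 times the Syne1 (log2 -2.78, SE 0.31, adjusted p = 0.00193, edgeR).

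**Figure D2:**
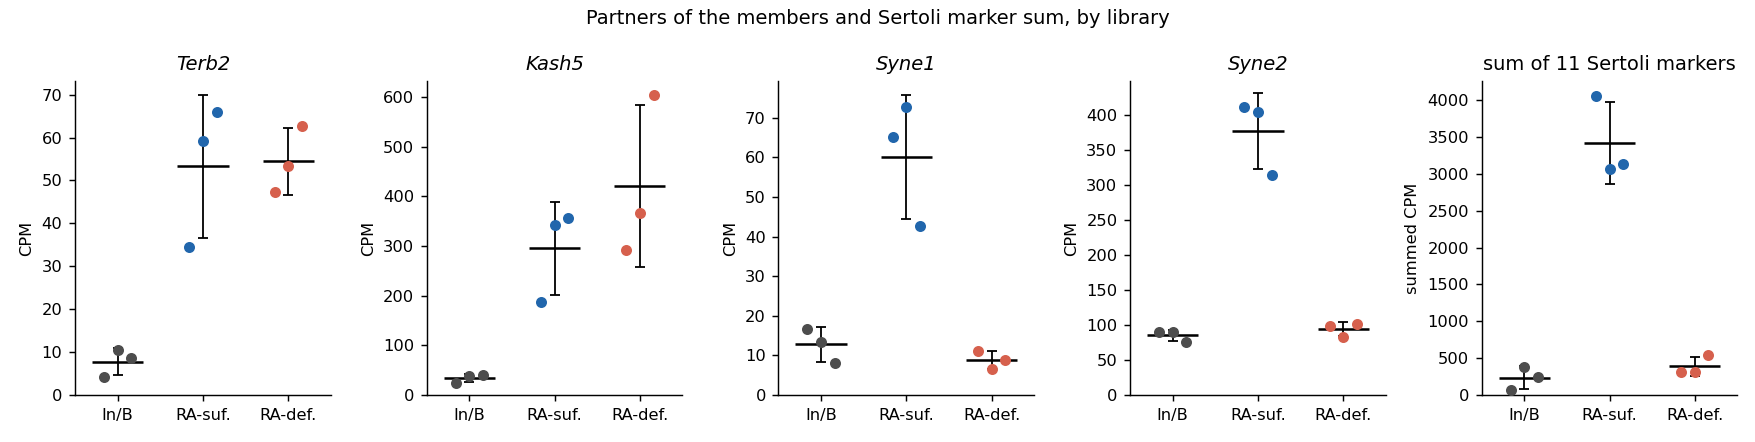
CPM of Terb2, Kash5, Syne1 and Syne2 and the summed CPM of 11 Sertoli markers in the 9 libraries, with group means and SD (n = 3). Terb2 and Kash5 were above In/B in all 6 PL libraries, and Syne1, Syne2 and the Sertoli sum (3072 to 4060 CPM) were highest in the 3 RA-sufficient PL libraries.

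In the 11 genes with SUN or KASH domains, 7 of the 10 tested were called higher in RA-sufficient PL, against 45.4% of all genes tested, and 2 of 8 in RA-deficient PL, Kash5 and Spag4, against 23.2%. The numbers tested differ because Irag2 and Sun3 passed the filter on low counts only through the RA-sufficient PL libraries in which they were high. They were not tested between In/B and RA-deficient PL, and their calls, which are among the 7, support nothing. Spag4, a SUN family gene of the male germ line, was 4.36-fold higher in RA-deficient PL than in In/B. Syne3 averaged 1.46, 21.3 and 0.96 CPM in In/B, RA-sufficient PL and RA-deficient PL, and Irag2 (Lrmp in the count table) 0.20, 5.79 and 0.28 CPM. Between the PL groups 4 of 10 were called, against 15.5% of all genes tested. These were Syne1, Syne2, Syne3 and Irag2, each lower in RA-deficient PL, and 2 were called when any one RA-sufficient PL library was left out. Syne3 and Irag2 rest on the RA-sufficient PL libraries in which they were high, so their calls support nothing. Sun3, also among the 10, was tested only through those libraries. The 4 of 10 is therefore no result beside that share. In the RA-deficient PL libraries the Sertoli markers stood at 309 to 537.5 CPM summed, against 3072 to 4060 CPM in RA-sufficient PL. The part of other cells in these values was not tested, and in sorted bulk cells fewer cells of a type and less RNA per cell cannot be told apart. Terb1, Terf1 and Kash5 had overlapping ranges in the PL groups, and the part of other cells in their values was not tested either.

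The shelterin genes split. Terf1, whose protein binds double-stranded telomeric repeats and contacts TERB1, rose, while Terf2, which binds the same repeats and protects ends from fusion, fell. Terf1 (chr1:15795739-15833551, plus strand) was at 29.4, 31.8 and 29.6 CPM in In/B, at 61.1, 84.5 and 98.6 CPM in RA-sufficient PL and at 102, 93.7 and 105 CPM in RA-deficient PL. In/B libraries were tightly grouped and lay below all PL libraries. Terf1 rose 2.80-fold in RA-sufficient PL (log2 1.48, SE 0.19, adjusted p = 0.000188, edgeR) and 3.72-fold in RA-deficient PL (log2 1.89, SE 0.14, adjusted p = 9.14e-05, edgeR), and the PL groups were not separated by the test (log2 0.30, SE 0.17, adjusted p = 0.245, edgeR).

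Terf2 (chr8:109593300-109620447, minus strand) went the opposite way, from 125, 142 and 136 CPM in In/B to 63.7, 68.1 and 61.1 CPM in RA-sufficient PL and 70.8, 79.9 and 75.4 CPM in RA-deficient PL. In/B was above both PL groups in every library. The log2 fold change was -1.01 (SE 0.12, adjusted p = 0.00012, edgeR) in RA-sufficient PL, just past the fold threshold. It was -0.997 without In/B replicate 2, -0.97 without RA-sufficient PL replicate 3 and -0.95 with the filter of 50 counts on average. None of these values was called. In RA-deficient PL the log2 fold change was -0.66 (SE 0.12, adjusted p = 0.00444, edgeR). Per exonic length Terf1 made up 39.2, 38.1 and 37.4% of the sum of Terf1 and Terf2 in In/B, 72.5, 77.3 and 81.6% in RA-sufficient PL and 79.8, 76.3 and 79.3% in RA-deficient PL. The order of the pair was therefore opposite in In/B and PL libraries, and the PL groups overlapped (exact permutation p = 0.7, two-sided, against 0.1 for each with In/B).

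Pot1a (chr6:25693737-25759246, minus strand), whose protein covers the single-stranded end of the telomere, fell in both PL groups. It was at 60.8, 48.8 and 48.4 CPM in In/B, at 14.9, 22.8 and 20.6 CPM in RA-sufficient PL and at 19.99, 11.2 and 13.1 CPM in RA-deficient PL. All PL libraries were below all In/B libraries. The log2 fold changes against In/B were -1.38 (SE 0.21, adjusted p = 0.000476, edgeR) and -1.67 (SE 0.26, adjusted p = 0.00199, edgeR), and the difference between the PL groups did not pass the test (log2 -0.39, SE 0.31, adjusted p = 0.389). Its mouse paralog Pot1b was not called, at 46.6 to 75.7 CPM in In/B, 39.3 to 61.8 CPM in RA-sufficient PL and 35.7 to 56.8 CPM in RA-deficient PL. Pot1a and Pot1b reads could be told apart by sequence, since 99.8% of the 75-base windows of Pot1a transcripts that lie within an exon occurred at a single place in mm9 and 0 were shared with Pot1b.

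Of the other shelterin genes, Acd, which bridges POT1 proteins to the rest of the complex, fell to 0.47 of its In/B level in RA-sufficient PL (log2 -1.09, SE 0.13, adjusted p = 0.000137, edgeR) and had a log2 fold change of -0.62 in RA-deficient PL. Terf2ip, the partner of TERF2, changed by -0.79 (adjusted p = 0.00263, edgeR) and -0.64 (adjusted p = 0.024, edgeR) on the log2 scale. Tinf2, the hub that joins TERF1 and TERF2, was lower in RA-sufficient PL (log2 -0.64, adjusted p = 0.0051, edgeR) and at -0.06 in RA-deficient PL (adjusted p = 0.85, edgeR). Terf1 was the only one of the 7 shelterin genes called higher in either comparison with In/B. By the adjusted p alone 5 were lower in RA-sufficient PL, where 65.0% of all genes tested passed in either direction, and 4 in RA-deficient PL, where 36.7% did. The second count was 2 without In/B replicate 2, In/B replicate 3 or RA-deficient PL replicate 2.

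**Figure D3:**
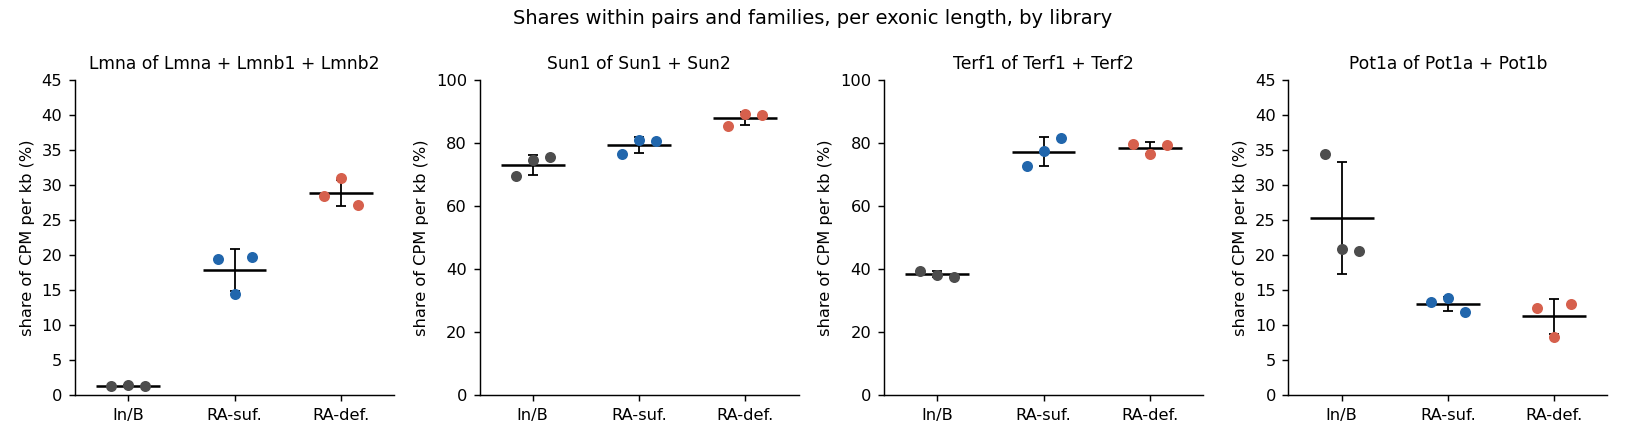
Share (percent of CPM per kb of exon) of Lmna among the 3 lamin genes, Sun1 of Sun1 and Sun2, Terf1 of Terf1 and Terf2, and Pot1a of Pot1a and Pot1b, by library with group mean and SD (n = 3). The Lmna share was 1.26 to 1.37% in In/B, 14.4 to 19.7% in RA-sufficient PL and 27.2 to 30.9% in RA-deficient PL.

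The lamin genes showed opposite changes. Lmna (chr3:88285070-88313878, minus strand), the A-type lamin gene, was barely expressed in In/B spermatogonia and rose, and the B-type lamin genes fell. Lmna was at 3.19, 2.95 and 2.54 CPM in In/B, from 57, 78 and 45 counts, at 19.1, 9.70 and 14.9 CPM in RA-sufficient PL and at 43.2, 53.2 and 22.9 CPM in RA-deficient PL. The 3 groups did not overlap, with RA-deficient PL highest and its replicate 3 nearest to RA-sufficient PL. Lmna rose 5.21-fold in RA-sufficient PL (log2 2.38, SE 0.32, adjusted p = 0.00027, edgeR) and 15.4-fold in RA-deficient PL (log2 3.95, SE 0.37, adjusted p = 0.000194, edgeR). It was 2.71-fold higher in RA-deficient than in RA-sufficient PL (log2 1.44, SE 0.40, adjusted p = 0.0374, edgeR). That call was lost without any one of 5 of the 6 libraries. The adjusted p was 0.0819 without RA-deficient PL replicate 1 and 0.0951 without replicate 2, and it was 0.0589, 0.121 and 0.116 without RA-sufficient PL replicates 1, 2 and 3. Without RA-deficient PL replicate 3 the log2 difference was 1.74 with an adjusted p of 0.00323 (edgeR), and with that library as the only one of its group it was 0.66. Sertoli cells also express A-type lamins. Their markers summed to 71.9 to 380.9 CPM in In/B, 3072 to 4060 CPM in RA-sufficient PL and 309 to 537.5 CPM in RA-deficient PL, so the sum was higher beside the rise of Lmna from In/B to RA-sufficient PL and lower in RA-deficient PL, where Lmna was highest. Its part in the Lmna values was not tested.

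Lmnb1 (chr18:56867467-56913078, plus strand) was at 122, 95.5 and 89.5 CPM in In/B, at 41.7, 28.6 and 30.8 CPM in RA-sufficient PL and at 52.5, 52.5 and 31.4 CPM in RA-deficient PL. Lmnb2 (chr10:80363948-80380990, minus strand) was at 64.7, 76.4 and 70.9 CPM in In/B, at 19.2, 16.9 and 16.6 CPM in RA-sufficient PL and at 33.8, 43.9 and 16.4 CPM in RA-deficient PL. Both genes were below the In/B range in all PL libraries, and RA-deficient PL replicate 3 lay within or next to the RA-sufficient PL range while replicates 1 and 2 were above it. In RA-sufficient PL the log2 fold changes were -1.55 (SE 0.20, adjusted p = 0.000198, edgeR) for Lmnb1 and -1.95 (SE 0.15, adjusted p = 2.11e-05, edgeR) for Lmnb2. In RA-deficient PL both genes were at the fold threshold, Lmnb1 at 0.4985 of its In/B level (log2 SE 0.24, adjusted p = 0.0132, edgeR) and Lmnb2 at 0.50 of its own (log2 SE 0.33, adjusted p = 0.0442, edgeR).

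The calls of the B-type genes in RA-deficient PL depended on single libraries, while both genes stayed lower than in In/B whichever library was left out. Of 14 alternative fits, 3 lost the call of Lmnb1 and 6 that of Lmnb2. Without RA-deficient PL replicate 3 the log2 fold changes against In/B were -0.79 for Lmnb1 and -0.69 for Lmnb2, and with replicate 3 as the only library of its group they were -1.64 and -2.03. Without In/B replicate 1 the adjusted p was 0.0522 for Lmnb1 and 0.0962 for Lmnb2 (edgeR), and for Lmnb2 it was 0.118, 0.114 and 0.093 without In/B replicate 2, In/B replicate 3 or RA-deficient PL replicate 1. Between the PL groups neither gene passed the test with all libraries (log2 0.42 and 0.83, adjusted p = 0.314 and 0.144, edgeR). Without RA-deficient PL replicate 3 Lmnb2 was higher in RA-deficient PL by 1.15 (adjusted p = 0.00456, edgeR) and was called, and Lmnb1 was higher by 0.65 (adjusted p = 0.0378, edgeR). The sum of the 6 markers of differentiating spermatogonia moved with these values, at 1396 and 1367 CPM in RA-deficient PL replicates 1 and 2 and 329.8 CPM in replicate 3. Not all 6 did so. Dmrtb1 was at 93.45, 81.8 and 65.0 CPM in these libraries and at 70.7 to 161.8 CPM in RA-sufficient PL. Ccnd2 was at 18.35, 18.2 and 14.8 CPM and was highest in RA-sufficient PL, at 49.8 to 79.3 CPM. The part of spermatogonia in the lamin values was not tested.

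The Lmna share of the length-scaled sum of the 3 lamin genes varied less between the RA-deficient libraries. It was 1.32, 1.37 and 1.26% in In/B, 19.4, 14.4 and 19.7% in RA-sufficient PL and 28.4, 30.9 and 27.2% in RA-deficient PL. RA-deficient PL replicate 3 was here beside its own group, and the 3 groups did not overlap (exact two-sided permutation p = 0.1 for each pair of groups, the smallest possible). The CPM of the 3 genes summed to 163 to 189.7 CPM in In/B, 55.2 to 80.0 CPM in RA-sufficient PL and 70.7 to 149.5 CPM in RA-deficient PL. This sum was therefore lower in every PL library than in every In/B library. It is relative to the library and not scaled by length, so it does not measure the amount of lamin mRNA in a cell.

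Both Lmna and Lmnb2 have a start inside the gene, and in the mouse germ line these are known to give the short lamins C2 and B3. In GENCODE M1 the transcript Lmna-003 starts in intron 1, 10023 bases downstream of Lmna-001, shares 9 of its 10 exons with it and encodes 462 residues in place of 665. Lmnb2-002 starts in intron 4, 11833 bases downstream of Lmnb2-001, shares 8 of its 9 exons with it and encodes 474 residues in place of 596. Counts per gene add these transcripts together, so the rise of Lmna and the fall of Lmnb2 cannot be assigned to the long or the short form. The 150 bases before the RefSeq starts of the long and short forms are given because the forms of each gene begin there, with the start of Terb1 for comparison. The RefSeq start of the long Lmna form lies at position 88307274 and that of Lmna-001 at 88307257, and a shorter transcript, Lmna-004, starts farther upstream at 88313878. They are read 5′ to 3′ on the minus strand from RefSeq promoter windows (GRCm38.p6) that matched mm9 exactly, at chr3:88307275-88307424 and chr3:88297235-88297384 for Lmna, chr10:80380991-80381140 and chr10:80369158-80369307 for Lmnb2 and chr8:107033788-107033937 for Terb1. Capitals mark a match to CNCCTCAG, the motif known from STRA8 binding at the onset of meiosis.
Lmna long-form start: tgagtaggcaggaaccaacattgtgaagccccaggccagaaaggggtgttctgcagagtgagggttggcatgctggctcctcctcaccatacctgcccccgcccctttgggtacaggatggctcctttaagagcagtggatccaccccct
Lmna short-form start: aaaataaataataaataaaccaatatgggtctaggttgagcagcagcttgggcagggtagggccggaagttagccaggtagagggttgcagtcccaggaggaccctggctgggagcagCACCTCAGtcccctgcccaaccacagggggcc
Lmnb2 long-form start: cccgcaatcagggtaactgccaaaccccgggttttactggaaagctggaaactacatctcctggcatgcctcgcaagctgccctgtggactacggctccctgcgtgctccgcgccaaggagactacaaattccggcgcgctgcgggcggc
Lmnb2 short-form start: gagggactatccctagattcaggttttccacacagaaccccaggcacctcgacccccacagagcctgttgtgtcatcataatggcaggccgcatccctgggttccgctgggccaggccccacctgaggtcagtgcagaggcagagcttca
Terb1 start: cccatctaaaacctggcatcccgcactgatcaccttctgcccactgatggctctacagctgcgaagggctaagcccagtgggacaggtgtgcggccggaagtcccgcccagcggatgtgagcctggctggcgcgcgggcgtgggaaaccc

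RefSeq windows of 250 bases before to 50 bases after a start were at hand for 7 of the 10 genes, 11 windows in all. CNCCTCAG, searched on both strands, was in 2 of these windows and in 7.94% of the 32851 windows of all genes. The matches were in the window of the short-form Lmna start, from position -32 to -25 relative to it, and on the opposite strand in that of the first Sun1 start, 41 to 48 bases after it. Of the other motifs searched on both strands, CACGTG, present in 7.15% of all windows, was in 0 of the 11. The same held for TTCCCGC, present in 4.6% of all windows, and for CAGTTG, present in 13.65%. A match is a description of the letters in these windows and says nothing of binding.

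Among the 10 other genes of the lamina list, which encode lamin-processing enzymes and lamin-binding proteins of the inner membrane, 0 were called in any of the 3 comparisons by edgeR, and 0 by DESeq2, where edgeR called 45.4%, 23.2% and 15.5% of all genes tested. With a library left out, 0 to 2 were called. At an unadjusted p below 0.05 (edgeR) there were 7 in RA-sufficient PL against In/B, 5 in RA-deficient PL against In/B and 4 between the PL groups. By edgeR's adjusted p alone 5 were lower in RA-sufficient PL than in In/B, 3 higher and 2 lower in RA-deficient PL than in In/B, and 3 higher in RA-deficient than in RA-sufficient PL, where 65.0%, 36.7% and 23.6% of all genes tested passed. Of the 3 higher genes, 1 was left in the second comparison without RA-deficient PL replicate 1 or 2, and 1 in the third without RA-sufficient PL replicate 2. Lbr, the lamin B receptor, was at 98.4 to 143 CPM in In/B, 49.9 to 70.1 CPM in RA-sufficient PL and 80.4 to 100.7 CPM in RA-deficient PL. Emd, which encodes emerin and binds A-type lamins, was 1.89-fold higher in RA-deficient than in RA-sufficient PL (log2 0.92, SE 0.16, adjusted p = 0.00919, edgeR). Rce1, which trims the tail of farnesylated lamins, had log2 fold changes of -0.97 and -0.93 in the PL groups, just short of the fold threshold.

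**Figure D4:**
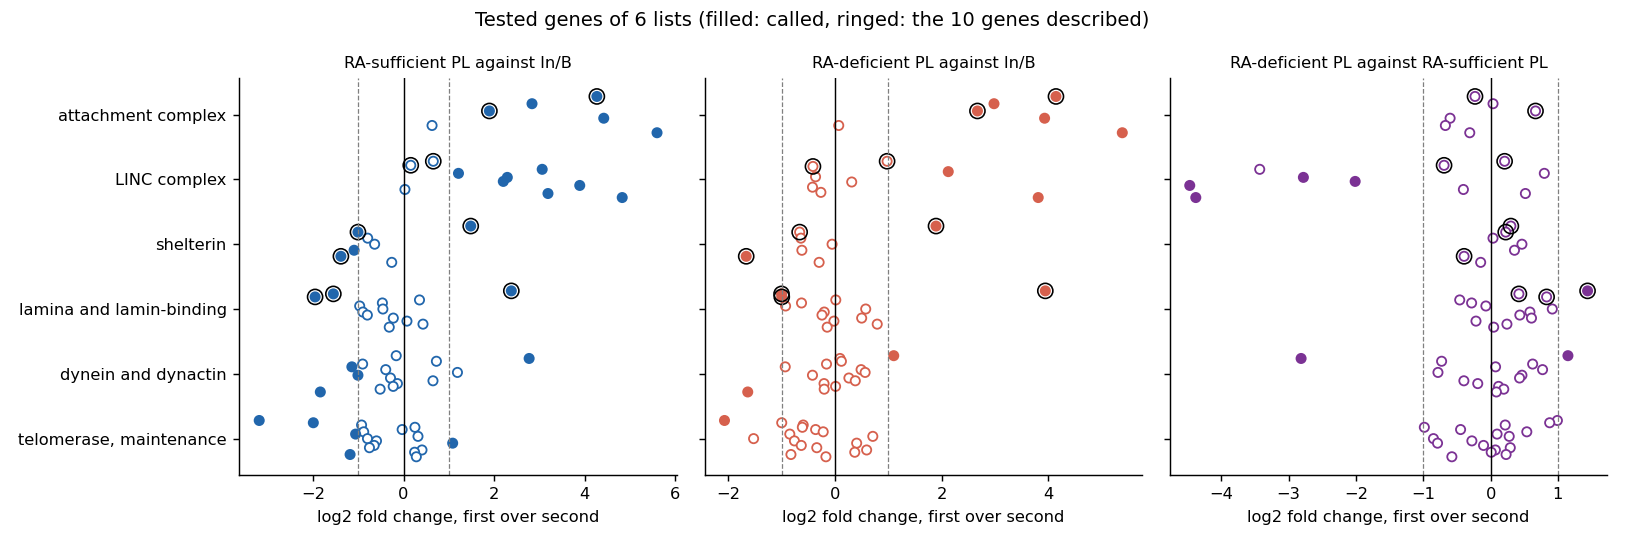
log2 fold change of each tested gene of 6 lists in 3 comparisons, first group over second, with filled points for called genes, rings around the 10 genes described and dashed lines at 1 and -1. Attachment complex genes lay to the right in both comparisons with In/B, and the called LINC genes other than Kash5 and Spag4 only in the comparison of RA-sufficient PL with In/B.

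Per kb of exon in GENCODE M1, the order of the genes differed between spermatogonia and spermatocytes. In In/B the levels were 37.6 ± 5.85 CPM per kb for Sun1, 34.5 ± 5.80 for Lmnb1, 29.2 ± 1.88 for Terf2, 20.6 ± 7.11 for Majin, 18.1 ± 0.79 for Terf1 and 16.5 ± 1.36 for Lmnb2 (SD, n = 3). The intervals of mean ± SD of neighbours in this order overlapped, and Sun2, Pot1a, Terb1 and Lmna followed at 13.7 ± 0.40, 6.07 ± 0.81, 2.78 ± 0.28 and 0.68 ± 0.077, each separated from the next. In RA-sufficient PL the top of the order was Majin (73.7 ± 18.96), Sun1 (57.0 ± 9.34), Terb1 (51.5 ± 11.7) and Terf1 (48.6 ± 11.3), which their spreads did not separate. These 4 stood above Sun2, Terf2 and Lmnb1 (11.4 to 14.7) and above Lmnb2, Lmna and Pot1a (2.24 to 4.10). RA-deficient PL had the same 4 genes on top, with Majin (117 ± 5.40) separated from Sun1 (65.8 ± 2.63), Terf1 (59.8 ± 3.45) and Terb1 (43.8 ± 13.3). Lmna, the last of the 10 in In/B, was at 9.34 ± 3.63 CPM per kb in RA-deficient PL and not separated from Lmnb1 (15.3 ± 4.12), Sun2 (9.13 ± 1.37) or Lmnb2 (7.32 ± 3.24).

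Across the 9 libraries the genes most like Terb1 by Pearson correlation of log2 CPM, among the 9697 genes that averaged 10 CPM or more, were Rad51ap2, Adamts4, Aff4, Hfm1 and Ift122 (r = 0.995 to 0.998). Rad51ap2 averaged 1.75, 149 and 134 CPM in In/B, RA-sufficient PL and RA-deficient PL, and Hfm1, a helicase of meiotic crossover formation, 24.4, 467 and 359 CPM. Among the described genes Terf1 (r = 0.96) and Majin (r = 0.92) were closest to Terb1, and Terf2 (r = -0.96) and Lmnb1 (r = -0.95) farthest. The genes most like Lmna were Abcb9, Ube2q2, Ltbp2, Rapgefl1 and Mgat5b (r = 0.98 to 0.99), which averaged more in RA-deficient PL than in RA-sufficient PL, as Lmna did. The libraries fall into 3 groups, so these coefficients mostly describe differences between groups, and no test was attached to them.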

How the data were processed

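The table deposited by the authors holds unnormalized read counts for 24505 genes in 9 libraries. Per the labels and the published methods they made stranded poly(A) libraries, sequenced 75-base single ends, trimmed with cutadapt 1.9, aligned to mm9 with STAR 2.5.2b and counted with featureCounts. The gene annotation and strand setting of the counting are not given in the sources used here. The study tested with DESeq2.

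Here pairs of groups (3 libraries each) were tested with edgeR 4.0.16 in R 4.3.3, with TMM scaling, filterByExpr, the quasi-likelihood test and Benjamini-Hochberg adjustment over all genes tested. The scripts were tested on simulated data. CPM come from TMM factors over all 9 libraries. Lengths and coordinates are those of GENCODE M1 (mm9). Of 128 listed genes 3 were found under an older symbol, and Syne3 and Hbb-bs have no coordinates. Shares were tested with exact permutation tests.

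The described genes, partner lists and marker lists were chosen with earlier results of these data known. Named genes are the 10 described, 8 direct partners, the 2 largest called changes of each list and the 5 genes most correlated with Terb1 and with Lmna. Lbr, Emd, Rce1 and Cdk2 were added once their values had been seen, outside that rule. Alternatives were RLE or library size scaling, no filter or 50 counts on average, a joint fit of the 9 libraries, a replicate block, DESeq2 1.42.0, an adjusted p of at most 0.01 and each library left out. Python 3.11.15 and matplotlib 3.10.9 drew the figures.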

Additional observations from a re-analysis of the deposited data

Results flagged for a closer look

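The change from In/B to PL differed between the regimens for 3 of the 10 genes and 2 of their 8 direct partners, by the test of the RA-deficient against the RA-sufficient PL libraries themselves (edgeR's quasi-likelihood test, adjusted p below 0.05), a threshold that 23.6% of all genes tested passed. Majin was higher in RA-deficient PL by 0.67 on the log2 scale and Lmna by 1.44, with all 3 RA-deficient libraries above all 3 RA-sufficient libraries. The log2 differences were -0.69 for Sun2, -2.78 for Syne1 and -2.01 for Syne2, with all 3 RA-deficient libraries below the RA-sufficient ones. Of the other genes named from the lists, Cdk2 (-0.67) and Dync1i1 (-2.81) were lower and Emd (0.92), Lbr (0.58) and Dync1h1 (1.15) higher in RA-deficient PL by the same test. Syne3 (-4.47) and Irag2 (-4.38) also passed as lower. Both averaged under 1 CPM in RA-deficient PL and rest on the RA-sufficient libraries in which they were high, so their calls support nothing. The 11 Sertoli markers moved with the Syne1 and Syne2 values, at 309 to 537.5 CPM summed in RA-deficient PL and 3072 to 4060 CPM in RA-sufficient PL, and their part in these differences was not tested.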

How the results depend on the processing

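The counts of called genes among the 10 in the comparisons with In/B stayed within 1.5 times of 8 and 7 under every alternative run. Between the PL groups the count of 1 (Lmna) was 0 with an adjusted p of at most 0.01, with library size scaling, with the replicate block and with RA-deficient PL replicate 3 as the only library of its group, and it ran from 0 to 2 when a library was left out. The block took the Lmna adjusted p to 0.0649 (log2 1.402). It changed no other call of the 10 genes, and same-numbered libraries did not deviate together (r from -0.301 to 0.303), so the numbers were not taken as pairs. Library size scaling moved the median of all genes by -0.32 in RA-deficient PL against In/B and by -0.18 between the PL groups.

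None of the 10 genes changed direction against In/B under any alternative run, and over the 10 genes and their partners 12 alternative log2 values changed sign, none of them of a called value. With RA-deficient PL replicate 3 alone in its group the log2 differences between the PL groups were 0.19 for Terb1, -0.10 for Lmnb1 and -0.0915 for Lmnb2, and in that fit the lone library is assumed to vary like the other group. Among the partners, library size scaling gave -0.0054 for Syne2 against In/B in RA-deficient PL and -0.15 for both Terb2 and Terf2ip between the PL groups. With a library left out, Tinf2 ran from -0.2345 to 0.09 in RA-deficient PL against In/B, and between the PL groups Terb2 ran from -0.1832 to 0.1916, Terf2ip from -0.0201 to 0.0849 and Pot1b from -0.3022 to 0.0251. The cause was not tested. Counts were low for Lmna in In/B, at 45 to 78 per library, and for the members of the LINC list at under 1 CPM. The part of depth in these values was not tested.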

Other observations

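The motor that moves attached telomeres is cytoplasmic dynein with its partner dynactin. Of 14 genes of this list 4 were called between In/B and RA-sufficient PL, 1 higher and 3 lower, and 2 in RA-deficient PL, 1 in each direction, against 45.4% and 23.2% of all genes tested. Nde1, which helps load dynein, fell in both PL groups, from 71.6 to 73.4 CPM in In/B to 16.6 to 23.0 CPM in RA-sufficient PL and 11.9 to 27.4 CPM in RA-deficient PL (log2 -1.84 and -1.64, adjusted p = 3.97e-05 and 0.00388, edgeR). Dync1h1, the heavy chain, was at 1378, 1751 and 1708 CPM in In/B, 1233, 1515 and 1409 CPM in RA-sufficient PL and 3201, 3500 and 2523 CPM in RA-deficient PL. It was thus higher in RA-deficient PL than in either other group, by 1.10 on the log2 scale against In/B (SE 0.14, adjusted p = 0.00085, edgeR) and by 1.15 against RA-sufficient PL (SE 0.15, adjusted p = 0.00297, edgeR). The call against In/B was lost with library size scaling, with all 9 libraries in a joint fit, and without RA-deficient PL replicate 2. Dync1i1, an intermediate chain, was at 20.9 to 30.2 CPM in RA-sufficient PL and at 1.60 to 5.82 CPM in the other 6 libraries, the same libraries in which the Sertoli sum was at most 537.5 CPM. The part of other cells in the Dync1i1 values was not tested.

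Of 17 genes for telomerase and telomere maintenance 5 were called between In/B and RA-sufficient PL, 1 higher and 4 lower, and 1 in RA-deficient PL, lower, against 45.4% and 23.2% of all genes tested. The count of 1 was 6 with library size scaling and 3 in the joint fit of 9 libraries, with the replicate block, by DESeq2, and without RA-deficient PL replicate 1 or replicate 3. Tert, the catalytic subunit of telomerase, fell from 31.9 to 34.3 CPM in In/B to 2.60 to 4.85 CPM in RA-sufficient PL and 4.42 to 8.40 CPM in RA-deficient PL, with log2 fold changes of -3.19 and -2.08 (SE 0.28 and 0.30, adjusted p = 3.36e-05 and 0.00133, edgeR). Dkc1, which binds the telomerase RNA, fell to 0.25 of its In/B level in RA-sufficient PL (log2 -1.99, SE 0.13, adjusted p = 1.24e-05, edgeR). In RA-deficient PL it was at 82.4, 65.3 and 25.0 CPM, with replicate 3 near the RA-sufficient level, and the log2 fold change of -1.001 did not pass the test (adjusted p = 0.0691, edgeR).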
